A study of Arabidopsis thaliana with 4 samples.

Results

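The genes described here encode small heat shock proteins and were measured through 9 probe sets of the Affymetrix ATH1 array, out of 22746 with control probe sets left out. They were picked because their signal was far higher on 1 of the 2 arrays of whitefly-infested Arabidopsis leaves than on the other arrays. The levels are therefore given as a description, and nothing is read from the members' test results given below. Of the 9, 5 were taken by gene, namely AT1G53540, AT2G29500, AT5G37670, AT1G54050 and ATHSP22.0 (AT4G10250). The others were taken by probe set, 250351_at, 252515_at, 262911_s_at and 250296_at, which the selection lists as class I and II small heat shock proteins. The platform annotation gives 262911_s_at to 2 genes, whose transcripts it cannot tell apart, and the other 3 are unnamed here, so these 4 keep their probe set names.

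Infested leaves came from wild-type Arabidopsis thaliana of ecotype Columbia that had received 100 adult silverleaf whiteflies (Bemisia tabaci type B) at 21 days of age, with the adults taken off after 7 days, so that their nymphs were feeding on phloem sap when rosettes were harvested 28 days after infestation. Uninfested leaves came from plants of the same ecotype and age that were caged without insects and harvested at the matching stage of development. All plants were 7 weeks old and had been grown under 8 h of light a day. Each group had 2 arrays, each of RNA pooled from 2 replicate experiments with 20 plants in all, and the infested and uninfested plants of an experiment shared a growth chamber.

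Small heat shock proteins are chaperones that bind unfolding proteins and hold them in a state from which HSP70 and HSP100 chaperones can refold them. Plants have many of them, sorted into classes by sequence and by the compartment they work in: classes I and II in the cytosol, class III in the nucleus, and others in the endoplasmic reticulum, peroxisomes, mitochondria and chloroplasts. In leaves that are not stressed most of their genes are close to silent, and heat shock transcription factors switch them on within minutes of heat; other stresses and seed maturation also raise some of them.

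All 4 arrays had been scaled by the authors to a common trimmed mean, and their median signals were 205.2 and 185.05 on infested 1 and infested 2, against 189.0 and 193.75 on uninfested 1 and uninfested 2. As a scale for low values, the 27 controls for transcripts absent from the samples read at most 52.1. Markers of leaf mesophyll were high: RCA, which encodes Rubisco activase, had signals of 19115 and 17614 on the infested and 19523 and 21392 on the uninfested arrays. The array infested 2 stood apart. On it, 26 of the 13648 probe sets that were bright enough to be tested exceeded each of the other 3 arrays by 8-fold or more. Of these 26, 9 are the members, which were picked for this excess. On the same array 8 fell short of each other array by as much, while infested 1, uninfested 1 and uninfested 2 had 0 and 0 such probe sets each. A sign of RNA integrity, the ratio of 3' to 5' signal, was 5.70 and 6.56 on infested 1 and 2, against 2.70 and 3.88 on uninfested 1 and 2, for the first actin control. For the second it was 1.31 and 1.43, against 1.43 and 1.42. It was lower on the infested arrays for both ubiquitin controls (2.08 and 1.87, against 2.77 and 2.34, and 1.45 and 1.31, against 1.64 and 1.74) and between 0.975 and 1.17 on every array for GAPDH. The control for 25S ribosomal RNA read 156.9 and 302.8 on the infested and 94.6 and 133.8 on the uninfested arrays. The part of these 2 measures in the results was not tested.

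The class I gene AT1G53540 had signals of 124.5 and 11210 on infested 1 and infested 2, against 40.3 and 55.7 on uninfested 1 and uninfested 2. AT2G29500, also of class I, had 198.8 and 7834 on the infested and 82.1 and 108.7 on the uninfested arrays. Infested 2 was 79.9-fold above the highest other array for AT1G53540 and 36.5-fold for AT2G29500, and for both genes infested 1 also lay above both uninfested arrays. Folds here and below are ratios of signal + 16, a constant that keeps very low signals from giving unbounded ratios. In RNA of whole leaves, a higher signal from more cells and from more RNA in each cell cannot be told apart, nor can fewer cells of a type and less RNA per cell.

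The probe sets of the cytosolic classes that are unnamed here or shared by 2 genes behaved alike on infested 2. The signals of 250351_at were 83.4 and 12046 on infested 1 and 2, against 27.9 and 41.4 on uninfested 1 and 2, a 121-fold excess of infested 2 over the highest other array. Those of 252515_at were 104.8 and 13152, against 66.8 and 19.5, a 109-fold excess. These were the largest ratios of the 9. The shared probe set 262911_s_at had 70.1 and 11938 on the infested and 122.3 and 37.9 on the uninfested arrays, so its infested 1 value fell between the uninfested ones, and its ratio of infested 2 to the highest other array was 86.4. For 250296_at the signals were 66.6 and 4317 on the infested and 36.9 and 14.5 on the uninfested arrays, which gave 52.5-fold.

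The members of other compartments were high on the same array. ATHSP22.0, whose product is the small heat shock protein of the endoplasmic reticulum, had signals of 163.4 and 3758 on infested 1 and 2, against 141.1 and 90.8 on uninfested 1 and 2. AT5G37670, which encodes a peroxisomal member, had 97.8 and 3027 on the infested and 69.5 and 57.4 on the uninfested arrays. The class III gene AT1G54050 had 205.1 and 6825 on the infested and 320.8 and 293.7 on the uninfested arrays. It was the only one of the 9 whose infested 1 value was below both uninfested values. Infested 2 exceeded the highest other array 21.0-fold for ATHSP22.0, 26.7-fold for AT5G37670 and 20.3-fold for AT1G54050. The plot of member signals shows the gap between infested 2 and the other arrays for each of them.

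**Figure D1:**
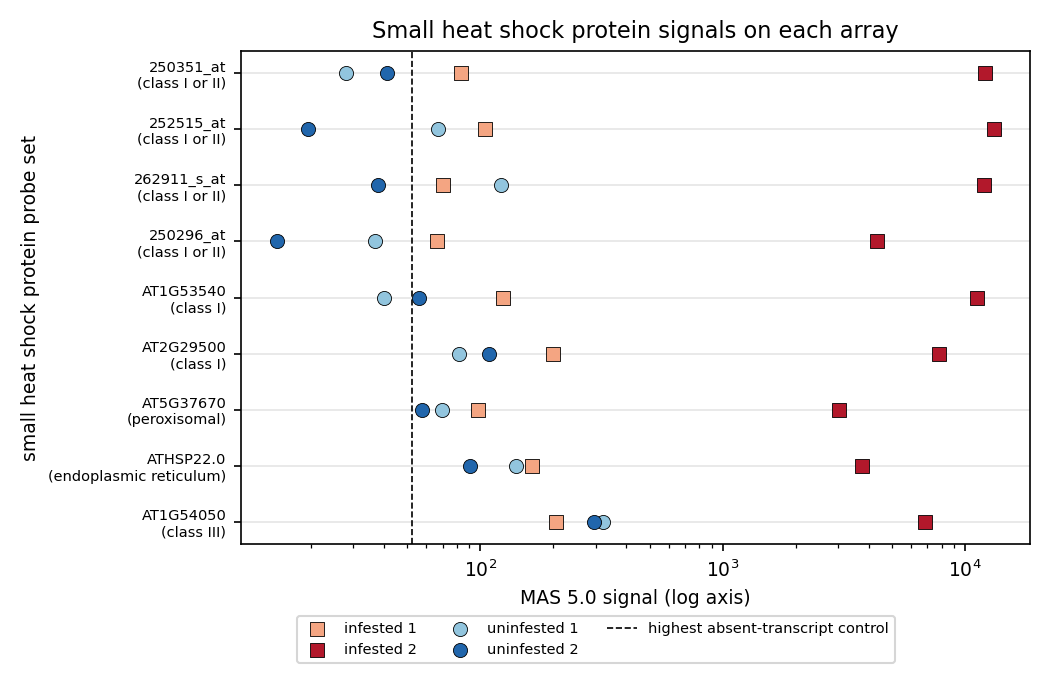
Signal of each of the 9 small heat shock protein probe sets on the 4 arrays (horizontal log axis, MAS 5.0 signal), with squares for the infested and circles for the uninfested arrays, 1 point per array. The dashed line is the highest signal of the controls for absent transcripts, 52.1. Infested 2 lies between 3027 and 13152, while infested 1 lies between 66.6 and 205.1, at most 2.24 times the signal of the higher uninfested array (AT1G53540) and below both for AT1G54050.

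Across the 9, infested 2 was above the highest other array by a median log2 ratio of 5.71, with a range of 4.34 to 6.92, and all 9 passed 8-fold, which 0.191% of tested probe sets did. That count follows from how the members were picked. The 6 probe sets of classes I and II had ratios between 36.5-fold and 121-fold, and the 3 of other classes between 20.3-fold and 26.7-fold. Within the 9, the 2 ranges stayed apart with pseudocounts of 1 and 64, with median scaling and quantile normalization, and without each of the other 3 arrays. The members were picked for these ratios, so nothing is read from the gap. Outside the 9, AT1G52560, classed with the mitochondrial members, was at least 37.4-fold higher on infested 2, above the lowest class I and II ratio. The highest other array was infested 1 for 7 of the 9 and uninfested 1 for 262911_s_at and AT1G54050, and its signal exceeded the absent-transcript controls of the same array for all 9. Leaving out infested 1 raised the median to 6.36, leaving out uninfested 1 took 262911_s_at to 7.12, and a pseudocount of 64 lowered the median to 5.07.

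Ranked among all probe sets of the same array, the 9 lay between the 95.5th and the 99.7th percentile on infested 2. On infested 1 they lay between the 27.7th and the 50.0th percentile, on uninfested 1 between percentiles 17.5 and 61.5, and on uninfested 2 between percentiles 12.1 and 59.5. This rank does not depend on how arrays are scaled to each other. Together the 9 made up 0.490% of the summed signal on infested 2 and 0.00733% on infested 1, against 0.00581% on uninfested 1 and 0.00457% on uninfested 2. At or below the highest absent-transcript control of the same array were 0 of the 9 on infested 1, against 3 on uninfested 1 and 4 on uninfested 2, with 250351_at and 250296_at on both of the uninfested arrays.

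The other infested array showed smaller differences. Infested 1 was above both uninfested arrays for 7 of the 9, which 47.2% of tested probe sets were, and both infested arrays were above both uninfested arrays for the same 7, against 33.8% of tested probe sets. The excess of infested 1 over the higher uninfested array had a median log2 value of 0.54 and reached 0.97, for AT1G53540. On the scale of signal + 16, 0 of the 9 were thus 2-fold above that array, where 2.18% of tested probe sets were. The count of members depends on the constant and on the uninfested arrays. With a pseudocount of 1 it was 1 (AT1G53540), by plain signal ratios 2 (AT1G53540 at 2.24 and 250351_at at 2.01), without uninfested 1 it was 2 and without uninfested 2 it was 3. The log2 excess was -0.61 for AT1G54050 and -0.68 for 262911_s_at. The median over all tested probe sets was -0.02. Without uninfested 1, which carried the higher uninfested value of 6 of the 9, infested 1 was above the remaining uninfested array for 8 of 9.

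Taken by same-numbered arrays, infested 1 minus uninfested 1 had a median log2 difference of 0.54, between -0.68 and 1.32, and infested 2 minus uninfested 2 one of 7.15, between 4.47 and 8.53. The uninfested array of the second pair, uninfested 2, had a lower signal than uninfested 1 for 6 of the 9. The spread within groups was uneven: the SD of log2(signal + 16) between the 2 infested arrays was 3.11 to 5.03 for the 9 (median 4.04), against 0.0856 to 0.961 (median 0.274) between the 2 uninfested arrays. The medians over all tested probe sets were 0.191 between infested and 0.108 between uninfested arrays. On the linear scale AT1G53540 averaged 5667 ± 7838 in infested and 48.0 ± 10.9 in uninfested leaves (SD, n = 2 each), so the SD exceeded the mean in infested leaves.

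All 9 passed the filter on low signals, a mean log2 level of at least 7.04 over the 4 arrays, but 6 of them did so only through infested 2: over the other 3 arrays the mean was at least that high for AT2G29500, ATHSP22.0 and AT1G54050 alone. The mean difference of infested from uninfested leaves was positive for all 9, between log2 1.93 for AT1G54050 and 4.54 for 252515_at, with standard errors of 1.33 to 2.16. In limma's fit over all 13648 tested probe sets, 0 of the 9 passed an adjusted p of 0.05 (Benjamini-Hochberg), where 2.83% of all were called higher and 2.54% lower. At an unadjusted p under 0.05 it was also 0 of the 9, where 1931 of the tested probe sets were higher and 1861 lower. With the replicate number as a block 4 were called higher (250351_at, 250296_at, AT1G53540 and AT2G29500), against 9.19% of all. Without infested 1 all 9 were called, against 15.1% of all, in a fit that takes the spread from the 2 uninfested arrays and from the trend over all probe sets. Without infested 2 the log2 difference lay between -0.55 for AT1G54050 and 1.16 for 252515_at, and was -0.004 for 262911_s_at. The members were picked on this contrast, so nothing is read from the counts of calls.

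The picked set does not hold every probe set with the same pattern. Within the tested probe sets, 4 others reached the lowest member ratio: 260248_at (6.28), 261838_at (5.84) and 266841_at (5.26), which are unnamed here, and the co-chaperone gene Hop3 (5.18). Just below the lowest member, AT1G54050 at log2 4.34, came AT5G51440 at 4.33. AT5G51440 encodes a mitochondrial small heat shock protein, and its signals were 87.3 and 2068 on infested 1 and 2, against 26.5 and 18.9 on uninfested 1 and 2.

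Of 15 other loci of the small heat shock protein family, 6 had a probe set with 1 gene and 4 of these were tested. AT5G51440 and AT2G19310 were more than 2-fold above each other array on infested 2, AT5G54660 less than 2-fold, and AT4G21870 was not above them. AT5G51440 passed the filter only through infested 2, so nothing is read from its p-values below or from its place in the counts and list median. AT2G19310 had signals of 1076 and 5695 on the infested and 805.6 and 943.5 on the uninfested arrays, 5.23-fold above the highest other array on infested 2. The signals of AT4G21870 were 247.3 and 289.7 on infested 1 and 2, against 295.8 and 353.8 on uninfested 1 and 2, and those of AT5G54660 were 284.6 and 334.9, against 212.9 and 265.0. For AT4G21870 the highest value was thus on an uninfested array. The list median log2 change was 0.92, against 0.04 over all tested probe sets, and limma called 0 of the 4. At an unadjusted p under 0.05 was 1 of them, AT5G51440, where 1931 of the 13648 tested probe sets were higher and 1861 lower. With the replicate block AT5G51440 (adjusted p = 0.0210) and AT2G19310 (adjusted p = 0.0378) were called, against 9.19% of all probe sets.

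AT1G52560, classed with the mitochondrial members, was too dim on 3 arrays to pass the filter. Its signals were 2.40 and 2532 on infested 1 and 2, against 1.90 and 2.50 on uninfested 1 and 2. All but infested 2 were far under the absent-transcript controls, so infested 2 was at least 37.4-fold higher, counting from the highest such control. The remaining gene, AT5G47600, read 36.9 and 53.3 on the infested and 45.7 and 36.2 on the uninfested arrays, near the level of absent transcripts throughout.

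The partners of small heat shock proteins could be followed in part. Of 18 co-chaperones and other heat-induced genes, 8 had a probe set with 1 gene and all 8 were tested, with 4 exceeding each other array at least 8-fold on infested 2 (0.191% of all tested) and 5 at least 2-fold (1.30% of all tested). Hop3 passed the filter only through infested 2, so nothing is read from its place in these counts or in the list median. Hop3, which links HSP70 to HSP90, had signals of 63.7 and 2882 on infested 1 and 2, against 50.4 and 63.6 on uninfested 1 and 2. AT5G48570, a peptidyl-prolyl isomerase of the FKBP type, had 384.4 and 7141 on the infested and 236.0 and 189.4 on the uninfested arrays. Fes1A, needed for acquired thermotolerance, had 467.8 and 5253, against 504.4 and 354.6. AT2G20560, a DnaJ-type protein, had 207.6 and 1875, against 132.7 and 188.9. These 4 are named for their excess on infested 2, so their high value there is not a result. Among them, the largest excess of infested 1 over the higher uninfested array was that of AT5G48570, at 1.59-fold. HSA32, which prolongs the memory of heat, had 157.8 and 663.1 on the infested and 157.5 and 149.0 on the uninfested arrays. Hop1, Hop2 and AT4G02450 stayed within 2-fold of the highest other array. The list median log2 change was 1.44, and limma called 0 of the 8. At an unadjusted p under 0.05 was 1 of them, Hop2, where 1931 of the 13648 tested probe sets were higher and 1861 lower. With the block 2 were called, AT5G48570 (adjusted p = 0.0373) and AT2G20560 (adjusted p = 0.0309), against 9.19% of all probe sets.

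Chaperones that were high on both infested arrays formed another pattern. Of 23 HSP100, HSP90, HSP70 and HSP60 genes 3 were tested, and Hsp70-2, a cytosolic HSP70, rose 3.68-fold, with signals of 1195 and 2306 on the infested and 471.7 and 410.1 on the uninfested arrays (limma adjusted p = 0.0419). Of 17 endoplasmic reticulum chaperones and regulators of the unfolded protein response 6 were tested, and 2 rose, against 2.83% of all probe sets. ATERDJ3B, a J-protein that works with the HSP70 BiP, had 3444 and 4234 on the infested and 1724 and 1366 on the uninfested arrays. CRT1b, a calreticulin, had 4226 and 3761, against 2081 and 1793. The log2 changes were 1.31 ± 0.20 (SE) for ATERDJ3B and 1.04 ± 0.17 (SE) for CRT1b, with limma adjusted p-values of 0.0377 and 0.0388. All 6 genes of this list were above both uninfested arrays on both infested arrays, as were 33.8% of all tested probe sets. Of the 6, BZIP60, a transcription factor of the unfolded protein response, was the 1 more than 2-fold above the highest other array on infested 2 (1854 and 3824 on the infested, 1235 and 1406 on the uninfested arrays). With the replicate block 5 of the 6 were called, against 9.19% of all. Without infested 2 the calls of Hsp70-2, ATERDJ3B and CRT1b held and the calnexin gene AT5G07340 was added (adjusted p = 0.0397), where 4.67% of all probe sets were called higher. Without uninfested 1, and without uninfested 2, limma called 0 of all 13648 probe sets, and over the 6 heat stress lists 5 genes had an unadjusted p under 0.05 in each case. The log2 changes were then 1.98 and 1.78 for Hsp70-2, 1.47 and 1.14 for ATERDJ3B, and 1.15 and 0.93 for CRT1b.

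Of 14 oxidative stress genes, 2 were tested. STZ, a zinc finger regulator of responses to cold, salt and oxidative stress, rose 2.17-fold, with signals of 3870 and 4494 on the infested and 1741 and 2101 on the uninfested arrays (limma adjusted p = 0.0385). AT2G21640 had 160.1 and 247.5 on the infested and 246.0 and 254.4 on the uninfested arrays. Of 21 heat shock factor genes, 0 had a probe set with 1 gene, so the level of these regulators was not analysed here, nor was that of HSP101.

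**Figure D2:**
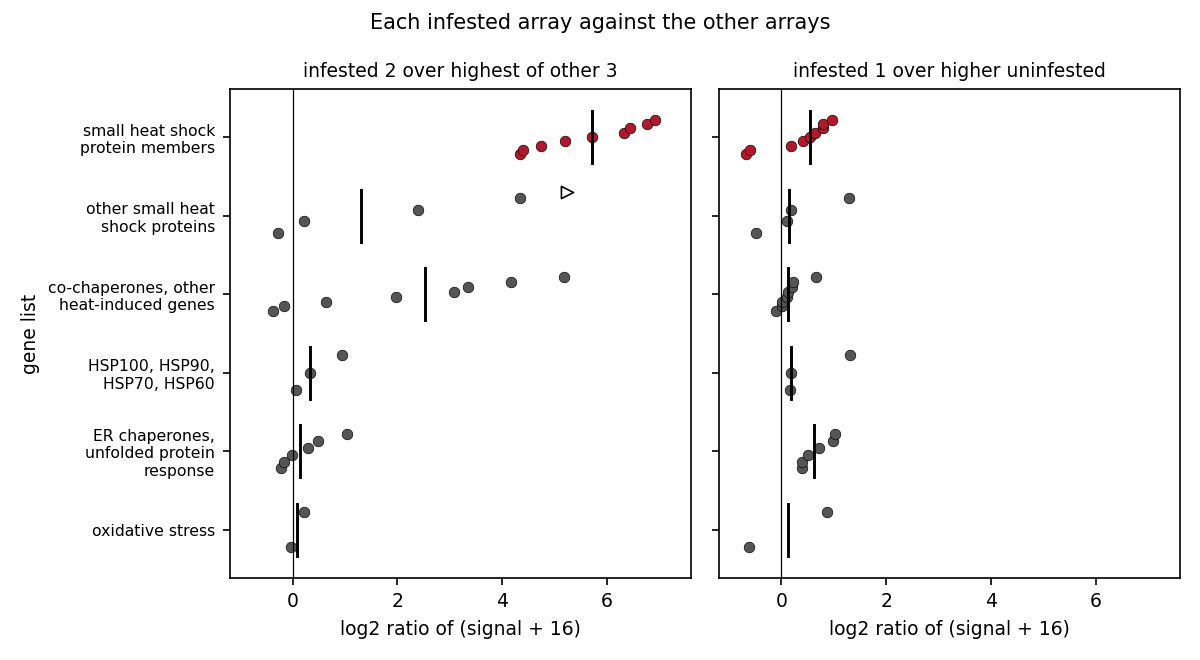
Log2 ratio of infested 2 to the highest other array (left) and of infested 1 to the higher uninfested array (right), on the scale of signal + 16, for the 9 members and for the tested genes of 5 lists, 1 point per probe set with the list median as a bar. The open triangle is AT1G52560 at its lower bound of 37.4-fold. The members lie between 4.34 and 6.92 on the left and between -0.68 and 0.97 on the right, while the 6 genes of the endoplasmic reticulum list are all above 0 on the right and between -0.23 and 1.04 on the left.

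Genes with the most similar profile were found by the Euclidean distance between a gene's log2(signal + 16) values over the 4 arrays, each less its own mean, and the median profile of the members. Among 7360 tested probe sets with 1 gene that are not members, whose median distance was 5.54, the 12 nearest lay between 1.06 and 3.29. The members themselves were 0.381 to 1.86 from their median. Nearest were AT5G51440 (1.06), Hop3 (1.15) and AT5G48570 (1.41), followed by AT5G25450 (1.99), Fes1A (2.46), AT1G21550 (2.52) and AT1G30070 (2.61). AT2G20560, AT1G05340, AT2G37750, AT3G14280 and AT2G19310 completed the 12, between 2.70 and 3.29. AT5G25450 had signals of 363.2 and 4753 on infested 1 and 2, against 188.8 and 249.3 on uninfested 1 and 2. AT1G30070 had 396.5 and 3598, against 339.4 and 294.1. In these 2 genes infested 1 was 1.43-fold and 1.16-fold above the higher uninfested array, within the range of the members. AT3G14280, by contrast, had 367.0 and 1038 on the infested and 94.2 and 82.7 on the uninfested arrays. It was the 1 gene of the 12 called by limma (log2 2.61, adjusted p = 0.0437), a call lost with no variance trend and without either uninfested array. With the replicate block 9 of the 12 were called, all but Hop3, Fes1A and AT1G30070. Of all probe sets 2.83% were called higher without the block and 9.19% with it. AT5G51440, Hop3 and AT2G37750 passed the filter only through infested 2, so nothing is read from their place in the counts. Without infested 2 the largest log2 changes of the 12 were 1.97 for AT1G21550 and 1.88 for AT3G14280. Likeness to the members was judged on the same 4 arrays, so nothing is read from these counts. A profile of 4 arrays says only that these values run alike.

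**Figure D3:**
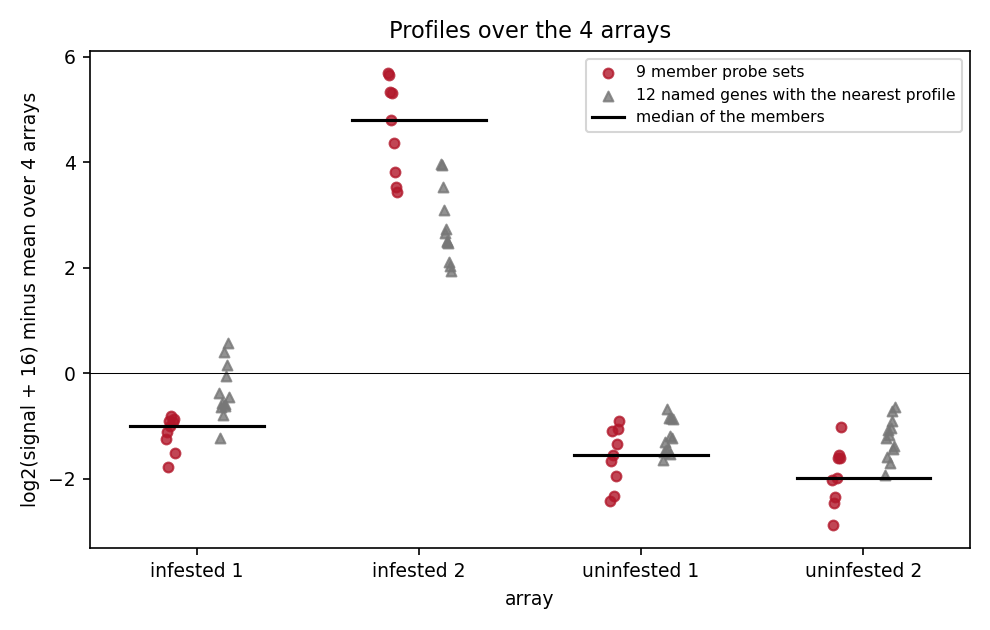
Log2(signal + 16) on each array less the probe set's mean over the 4 arrays, for the 9 members (circles) and the 12 genes nearest to them (triangles), with the members' median as a bar at -1.01 on infested 1, 4.80 on infested 2, -1.55 on uninfested 1 and -1.98 on uninfested 2. The nearest genes are also highest on infested 2, and spread further up than the members on infested 1.

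Markers of other tissues gave little to set beside these values. Of 7 seed markers, whose tissue also expresses small heat shock protein genes, 1 had a probe set with 1 gene, AT3G22490, with 2.40 and 2.20 on the infested and 1.90 and 3.60 on the uninfested arrays, below the controls for absent transcripts. The root gene PYK10 had 135.2 and 104.1 on the infested and 53.5 and 54.5 on the uninfested arrays. The 4 measured mesophyll markers of 7 summed to 53077 and 44043 on the infested and 69093 and 73744 on the uninfested arrays. Of these, SBPASE fell (limma adjusted p = 0.0411), a call lost with quantile normalization and with no variance trend. With the replicate block 3 of the 4, SBPASE, PRK and LHCB4.2, were called lower, against 10.3% of all probe sets, and likewise 3 without infested 2, against 5.06%. The 2 guard cell markers summed to 1194 and 1018, against 2094 and 1995, and AT1G22690 fell (limma adjusted p = 0.0411). Of 2 phloem and 2 flower markers 0 had a probe set with 1 gene. On none of the measured markers did infested 2 stand above the other 3 arrays, and the part of cell composition in the small heat shock protein values was not tested.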

How the data were processed

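Leaf RNA of 2 infested and 2 uninfested pools was hybridised to Affymetrix ATH1 arrays. The values are signal intensities on a linear scale, deposited by the authors and made with MAS 5.0 at its standard parameters, per the series text and the submitters' processing notes; the software version is not given in the sources used here. The intensities had been scaled to a trimmed mean of 500.0 on each array. MAS 5.0 subtracts mismatch signal, which leaves low values imprecise, and the absent calls were not used here. Precision is limited by there being 2 arrays a group.

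Of 22810 probe sets 64 were controls and were dropped. Values were transformed to log2(signal + 16), and probe sets with a mean below the 40th percentile (log2 7.04, a signal of 116) were not tested, which left 13648. Infested and uninfested arrays were compared with lmFit and eBayes (limma 3.58.1 in R 4.3.3, variance trend, two-sided, Benjamini-Hochberg adjusted p under 0.05 over all tested probe sets). The procedure was also run on simulated data with the same spread on all arrays and equal shifts on both infested arrays. That run does not show how the fit deals with an array that stands apart, as infested 2 does. Ratios of infested 2 to the highest other array, and of infested 1 to the higher uninfested array, were computed for each probe set. Pools are numbered by experiment in the series text, and the replicate numbers of the labels were read as those numbers. The deviations of same-numbered arrays correlated at 0.264 (Pearson, over probe sets). A fit with the replicate number as a block was therefore run beside the unblocked one. The pools came from separate sets of plants, so p-values measure the spread between pools.

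Probe sets were named from the platform annotation, with symbols updated through RefSeq (TAIR10.1) for 13436 of the 13513 that had 1 gene; 503 had several and 8730 none. Genome positions and sequences were not used. The members and gene lists were chosen with earlier results of these data known. Those called heat stress lists here include the endoplasmic reticulum and oxidative stress lists. Named genes are the 9 members, in each list the genes called or at least 8-fold above the highest other array on infested 2 (otherwise the 3 with the largest change), and the 12 genes nearest to the members. HSP100, heat shock factor and other listed genes without a probe set of their own were not analysed here. Alternatives were pseudocounts of 1 and 64, no filter, median scaling, quantile normalization, no variance trend, the block, and each array left out.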

Additional observations from a re-analysis of the deposited data

How the results depend on the processing

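With the replicate block, limma called 1254 probe sets higher and 1403 lower, against 386 and 347 without it, and 11 genes of the 6 heat stress lists in place of 4. The 4 were Hsp70-2, ATERDJ3B, CRT1b and STZ. The 11 include AT5G51440, which passed the filter only through infested 2. With no filter on low signals it called 0 in either direction (2453 higher and 2203 lower at an unadjusted p under 0.05), and 0 of the list genes. Median scaling gave 354 higher and 592 lower, and leaving out the variance trend gave 199 lower; the cause was not tested. Leaving out 1 array gave 0 to 2065 higher, 0 to 2487 lower and 0 to 16 list genes: 0 without uninfested 1 and without uninfested 2 (827 and 978 higher at an unadjusted p under 0.05), 638 higher, 690 lower and 5 list genes without infested 2, and the highest counts without infested 1. The lone array of a group is then assumed to vary like the other group. The median log2 ratio of infested 2 to the highest other array over the 9 small heat shock protein probe sets was 5.07 with a pseudocount of 64 and 5.71 to 6.36 with 1 array left out, against 5.71 as reported. Of the named genes called in the fit as reported, none changed sign in the alternatives run. Other values did. The log2 change of AT1G54050 was -0.55 without infested 2, against 1.93 as reported, and that of 262911_s_at was -0.004, against 3.55. Those of 260248_at, 261838_at and 266841_at also lay below 0 without infested 2. The log2 ratio of infested 1 to the higher uninfested array for 262911_s_at was 0.68 without uninfested 1, against -0.68 with it. The log2 change of RCA was 0.06 with quantile normalization, against -0.16, and that of Hop1, 0.01 as reported, lay below 0 with median scaling, with quantile normalization, without infested 1 and without uninfested 1. The calls of SBPASE, AT1G22690 and AT3G14280 were also lost with no filter and without either uninfested array.

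Signals near the controls for absent transcripts are imprecise, which limits the ratio of infested 1 to the uninfested arrays.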

Other observations

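On infested 2, 8 tested probe sets were at least 8-fold below the lowest of the other 3 arrays, and 5 of them had 1 gene. They are named here because of these values. AT1G11850 had signals of 374.6 and 10.5 on infested 1 and 2, against 1421 and 601.5 on uninfested 1 and 2, and was 14.7-fold below the lowest other array on infested 2. AT5G48490 had 2333 and 241.4 on the infested and 6155 and 4935 on the uninfested arrays, 9.13-fold below. The others were AT5G45670 (11.3-fold), AT4G29020 (9.45-fold) and AT5G02890 (8.47-fold). With the replicate block all 5 were called lower (limma adjusted p of 0.0043 to 0.0204), against 10.3% of all probe sets. Without it 0 were, against 2.54%. On infested 1 all 5 also lay below both uninfested arrays, as did 34% of tested probe sets. With infested 2 left out, their log2 changes lay between -1.27 (AT1G11850) and -0.50 (AT5G45670). The 5 were picked on these same arrays, so nothing is read from these counts. Like the small heat shock protein probe sets, these genes were picked for their values on infested 2, so the shared array is not a result.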
